A study of Mus musculus with 20 samples.

Results

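The 38 mitosis genes described here were chosen by name: their products act between the entry of a cell into mitosis and the separation of its daughters. The rule uses no measured value, although the list was drawn up with earlier results of these data known. All 38 are among the 17101 genes of the deposited table, and all 38 had mean normalized counts above the minimum of 10 in every comparison. RNA-Seq had been performed on splenic donor T cells that were sorted from recipients on day +10 after allo-BMT, with 20 libraries in 5 groups of 4. In the KO groups (CD4+, CD8+ and CD4+CD8+ double-positive, or DP, cells) the donors were DNMT3a KO (CD4-Cre 2loxP) mice, in which Cre, driven by the Cd4 promoter, deletes the loxP-flanked part of Dnmt3a in T cells. In the WT groups (CD4+ and CD8+ cells) the donors were DNMT3a WT littermates. All groups share the B6 → F1 haploidentical model, with donors aged 6 to 12 weeks and irradiated recipients aged 8 to 12 weeks. The labels number the KO libraries of each subset 1 to 4 and the WT libraries 2, 3, 5 and 6. Libraries with the same number and genotype are called 1 animal here, because their levels deviated together, and whether each came from 1 mouse or a pool is not stated in the labels. DP cells of WT donors are not analysed here.

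A dividing cell enters mitosis when Cdk1, bound to a B-type cyclin, phosphorylates a large set of proteins with the help of Plk1 and the Aurora kinases. Chromosomes condense and attach through their kinetochores to a spindle built by kinesin motors, the spindle checkpoint holds Cdc20 back until attachment is complete, and Cdc20 then activates the APC/C ubiquitin ligase, which destroys the cyclins and lets the cell divide at the spindle midzone. Most of these genes are transcribed late in the cell cycle, so in T cells their mRNA is abundant during clonal expansion and scarce at rest. In a bulk library, fewer cells in mitosis and less mitotic RNA per cell cannot be told apart.

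Promoters of mitotic genes are known for a short element, the cell cycle genes homology region (CHR), which often lies downstream of CCAAT boxes. The promoters of 5 members that carry the results below are shown with the letters of both motifs in capitals on either strand: CHR as TTTGAA, which reads TTCAAA on the other strand, or TTTAAA, and the CCAAT box as CCAAT, which reads ATTGG on the other strand. They are the kinase Cdk1, its partner Ccnb1, the kinase Plk1, the APC/C activator Cdc20 and the topoisomerase Top2a. Each runs 5′ to 3′ along its gene, from 250 bases before the RefSeq start to 50 bases after it, in build GRCm38.p6.
Cdk1, chr10:69352863-69353162 (minus strand): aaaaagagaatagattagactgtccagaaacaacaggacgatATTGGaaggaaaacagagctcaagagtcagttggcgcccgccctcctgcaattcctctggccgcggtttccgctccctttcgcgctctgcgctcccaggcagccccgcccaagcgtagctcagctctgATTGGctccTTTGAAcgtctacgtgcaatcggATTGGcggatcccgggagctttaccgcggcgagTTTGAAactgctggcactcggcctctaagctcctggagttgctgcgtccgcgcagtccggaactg
Ccnb1, chr13:100786437-100786736 (minus strand): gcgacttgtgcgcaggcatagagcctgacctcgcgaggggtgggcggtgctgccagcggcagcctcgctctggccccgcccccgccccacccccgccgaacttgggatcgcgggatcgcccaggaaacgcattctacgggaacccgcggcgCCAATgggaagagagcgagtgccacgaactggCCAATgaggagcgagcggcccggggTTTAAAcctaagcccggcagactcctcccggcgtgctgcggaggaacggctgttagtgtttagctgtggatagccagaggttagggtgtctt
Plk1, chr7:122159185-122159484 (plus strand): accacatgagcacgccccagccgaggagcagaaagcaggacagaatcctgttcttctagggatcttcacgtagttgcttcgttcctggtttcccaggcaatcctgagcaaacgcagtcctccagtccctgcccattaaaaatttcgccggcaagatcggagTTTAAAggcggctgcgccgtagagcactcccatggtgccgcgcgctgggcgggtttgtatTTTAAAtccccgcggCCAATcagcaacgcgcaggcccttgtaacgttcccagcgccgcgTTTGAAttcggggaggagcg
Cdc20, chr4:118437294-118437593 (minus strand): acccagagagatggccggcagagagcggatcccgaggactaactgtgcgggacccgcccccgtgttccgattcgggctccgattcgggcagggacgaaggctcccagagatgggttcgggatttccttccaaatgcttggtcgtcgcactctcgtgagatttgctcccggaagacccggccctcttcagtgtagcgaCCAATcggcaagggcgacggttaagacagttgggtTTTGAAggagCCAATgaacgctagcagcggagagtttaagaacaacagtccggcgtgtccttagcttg
Top2a, chr11:99024140-99024439 (minus strand): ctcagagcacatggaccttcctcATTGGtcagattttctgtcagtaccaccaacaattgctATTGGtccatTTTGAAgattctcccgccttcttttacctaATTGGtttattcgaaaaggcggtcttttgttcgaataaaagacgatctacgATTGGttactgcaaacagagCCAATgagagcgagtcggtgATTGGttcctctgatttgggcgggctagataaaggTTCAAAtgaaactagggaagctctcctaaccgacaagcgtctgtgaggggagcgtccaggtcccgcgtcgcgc

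Of the 38 members, 32 had RefSeq promoters in the reference table, 33 promoters in all. A CHR match was present in 28 of the 33 (84.8%), against 27.6% of all 32851 promoters of the same length and 19.3% of the 11895 promoters of genes in the comparisons. Within the last 100 bases of the window the share was 72.7% for members, 8.28% for all promoters and 4.97% for those of genes in the comparisons. CCAAT was found in 24 of 33 (72.7%, against 37.4% of all promoters and 37.6% of those of genes in the comparisons). An E2F motif (TTCCCGC or TTGGCGC or TTCGCGC or TTGCCGC on either strand), which is associated with genes of the preceding replication phase, was found in 5 of 33 (15.2%), beside 9.57% of all promoters and 16.3% of those of genes in the comparisons. Each promoter was counted once for a motif, TTTAAA reads the same on both strands, and GCGCCAA, the other strand of an E2F form, can share letters with CCAAT. These matches describe letters in a window and are not measured binding sites. The 6 members without an entry are Aurkb, Tpx2, Ccna2, Pbk, Kif20a and Cdc25c.

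Between 37547651 and 46966318 reads were counted on genes in each library, and more genes had reads in WT (14421 to 14677) than in KO libraries (11783 to 14198). Dnmt3a was lower in KO than in WT CD4+ cells (log2 fold change -1.64, limma adjusted p = 1.26e-05) and CD8+ cells (-1.20, limma adjusted p = 6.54e-04). All 7 T cell markers on the list had reads in all 20 libraries, with summed normalized counts of 144675 to 324176. The summed normalized count of 8 neutrophil genes was 2307 to 3549 in CD4+ and 1840.4 to 4410.3 in CD8+ libraries of WT animals, but 5.89, 12.4 and 2.94 in the CD4+, CD8+ and DP libraries of KO animal 2 and 71.7, 170.2 and 137 in those of KO animal 1, and 7 of the 8 genes were at 0 in the CD4+ and DP libraries of animal 2. In the same subset order, the neutrophil sums were 4259, 2745 and 7334 in KO animal 3 and 514, 501 and 543 in KO animal 4. The sum of 6 erythroid genes was 875 to 4029 and 676 to 2617 in the same WT groups and 27.8 to 1387 in the KO libraries. Sums of 5 B cell genes were 48.8 to 94.4 in KO CD4+ and 20.2 to 37.9 in WT CD4+ libraries. They were 39.6 to 59.7 in KO CD8+, 14.4 to 41.7 in WT CD8+ and 32.6 to 110.1 in KO DP libraries. Sums of 6 macrophage genes were 918 to 1402 in KO CD4+ and 1676 to 2610 in WT CD4+ libraries. For KO CD8+, WT CD8+ and KO DP libraries they were 1343 to 2594, 1794 to 2868 and 1462 to 2991. In KO CD4+ cells of animal 1, Cd8a was 3771, beside 78.3 to 586 in the other CD4+ libraries, and Cd4 was 302 to 458 in KO CD8+ and 9.88 to 79.6 in WT CD8+ libraries. Whether these cells contribute to the mitotic levels was not tested.

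Mitotic transcripts made up 0.193% to 0.527% of the normalized counts in KO CD4+ libraries and 0.360% to 0.452% in WT CD4+ libraries. The share was 0.210% to 0.582% in KO CD8+, 0.549% to 0.623% in WT CD8+ and 0.234% to 0.580% in KO DP libraries. Averaged over the 38 genes, the level on the log2(normalized count + 1) scale was 10.48, 12.00, 11.50 and 11.03 in KO CD4+ cells of animals 1 to 4 (11.25 ± 0.646, SD, n = 4) and 11.49, 11.76, 11.63 and 11.37 in WT CD4+ cells of animals 2, 3, 5 and 6 (11.56 ± 0.169). The KO libraries of animals 1 and 4 lay below all 4 WT libraries, animal 2 lay above them and animal 3 lay among them.

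In CD8+ cells the mean level was 10.61, 12.25, 12.02 and 11.82 in KO (11.68 ± 0.729) and 12.02, 12.16, 12.05 and 12.07 in WT (12.08 ± 0.0621). It was 10.77, 12.30, 11.84 and 11.84 in KO DP cells (11.69 ± 0.650). Animal 1 had the lowest and animal 2 the highest mean in each KO subset, while the 4 WT CD8+ libraries lay within a narrow band.

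**Figure D1:**
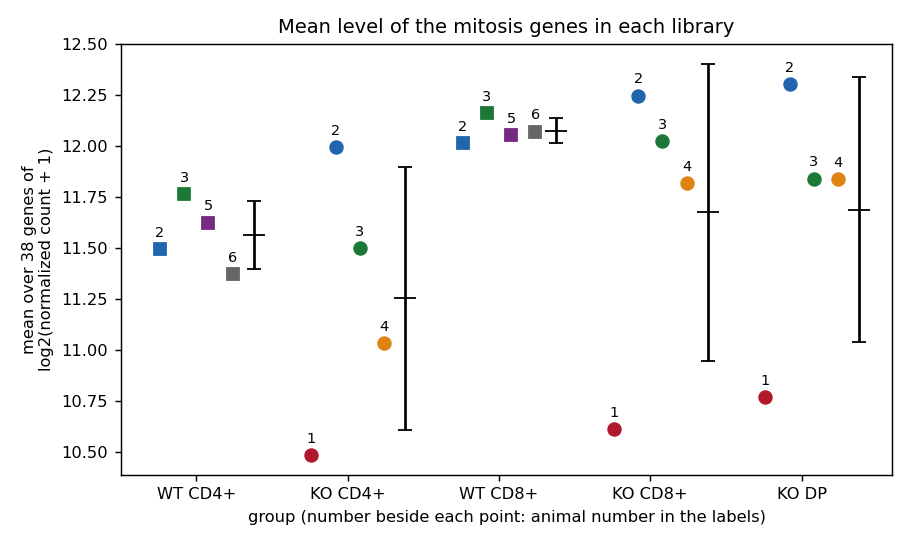
Mean level of the 38 mitosis genes in each of the 20 libraries, on the log2(normalized count + 1) scale, by group; each point is 1 library, circles are KO and squares WT, colours give the animal number (equal numbers in KO and WT are not the same animal), and bars give the mean ± SD of 4 libraries. The KO groups spread from 10.48 to 12.30, and the WT CD8+ libraries from 12.02 to 12.16.

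Per kilobase of exon and averaged over the 20 libraries, the cyclin Ccnb2 (4705 normalized counts per kb), the centromeric histone Cenpa (4694) and Top2a (4366) were the most abundant members. Mki67, a coat protein of mitotic chromosomes and a common marker of dividing cells, was at 3467, and Ube2c, the ubiquitin-conjugating enzyme of the APC/C, was at 3466. The least abundant were Anln (167), which organizes the contractile ring, the Cdk1-activating phosphatase Cdc25c (309.8) and the kinetochore protein Cenpf (325). On this per-length scale the leading gene was Top2a in WT CD4+ (4570.2) and WT CD8+ cells (6049), Ccnb2 in KO CD4+ (3967) and KO CD8+ cells (5706), and Cenpa in KO DP cells (6243).

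**Figure D2:**
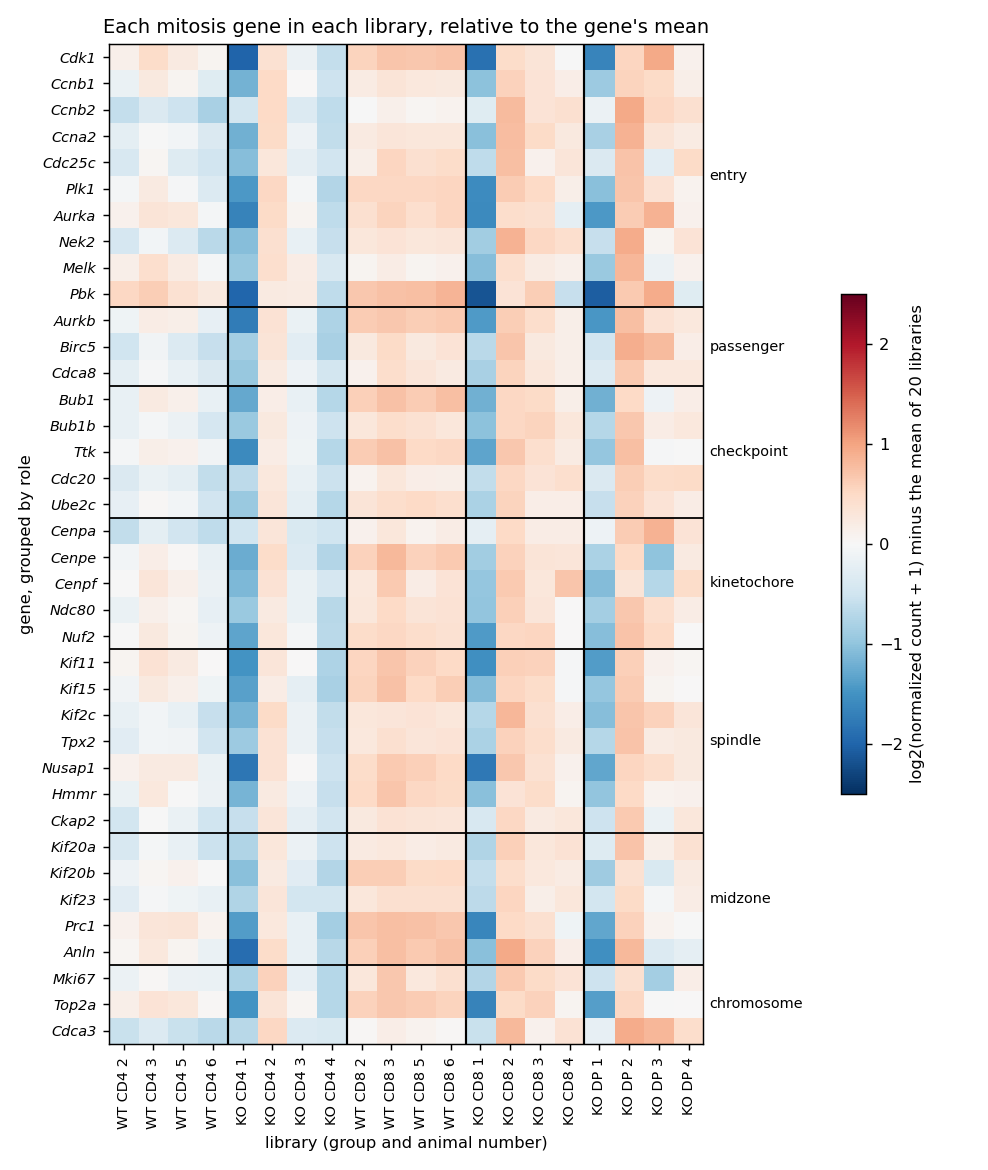
Level of each of the 38 genes (rows, by role) in each of the 20 libraries (columns, by group and animal number), as the log2(normalized count + 1) value minus the gene's mean over the 20 libraries; the colour scale runs from -2.5 to 2.5 log2 units. The columns of KO animal 1 are low and those of KO animal 2 high in most genes of all 3 subsets, and WT CD8+ columns are more alike than KO CD8+ columns.

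Among the genes of mitotic entry, Cdk1, the kinase that starts mitosis, had normalized counts of 597, 3133, 2174 and 1587 in KO CD4+ cells of animals 1 to 4, against 2615, 3303, 2817 and 2519.8 in WT CD4+ cells of animals 2, 3, 5 and 6. In CD8+ cells, Cdk1 was at 655, 3302, 3020.5 and 2379 in KO and 3544, 3883, 3855 and 3964 in WT. Cdk1 counts in KO DP cells were 766, 3468, 4648 and 2601. In CD4+ cells KO animal 2 alone lay within the WT range and the other KO libraries lay below it, and in CD8+ cells all 4 KO libraries lay below the lowest WT library. Ccnb1, the cyclin that activates Cdk1, was at 1761, 5633, 3992 and 2762 in KO CD4+ cells of animals 1 to 4, against 3549, 4719, 4159 and 3222 in WT CD4+ cells of animals 2, 3, 5 and 6. The Ccnb1 counts in CD8+ cells were 1949.8, 5916, 5027 and 4439 in KO and 4596, 5008, 4772 and 4726 in WT. In KO DP cells Ccnb1 stood at 2117, 5839, 5549 and 4418. KO and WT overlapped in both subsets, with KO animals 1 and 4 below and animal 2 above all WT libraries. KO animal 3 lay within the WT range in CD4+ cells and just above it in CD8+ cells. Plk1, a kinase needed for entry, spindle assembly and division, was counted at 1271, 4904, 3346 and 2059 in KO CD4+ cells of animals 1 to 4, against 3311, 4015, 3362 and 2705 in WT CD4+ cells of animals 2, 3, 5 and 6. For Plk1 the CD8+ values were 1165, 5334, 4848 and 3806 in KO and 4940.1, 4934, 4959 and 4999.8 in WT. KO DP cells had Plk1 counts of 1677, 5589.9, 4432 and 3663. The WT CD8+ libraries differed by no more than 1.01-fold, the smallest range of any member in any group, while KO CD8+ libraries lay on both sides of them.

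Of the chromosomal passenger complex, the kinase Aurkb, which corrects faulty attachments, was at 825, 3526, 2469 and 1612 in KO CD4+ cells of animals 1 to 4, against 2551, 3137, 3039 and 2392 in WT CD4+ cells of animals 2, 3, 5 and 6. In CD8+ cells, Aurkb stood at 1031, 4243, 3735 and 3056 in KO and 4264, 4406, 4251 and 4337 in WT. The KO DP values were 1009.9, 4635, 3565 and 3321. All 4 KO CD8+ libraries lay below all WT CD8+ libraries, whereas in CD4+ cells KO animal 2 lay above and animals 1 and 4 below the WT range. Among the checkpoint genes, Bub1b, which inhibits Cdc20 at unattached kinetochores, had counts of 2640.4, 5999, 4621 and 3542 in KO CD4+ cells of animals 1 to 4, against 4426, 4911, 4546 and 3750.3 in WT CD4+ cells of animals 2, 3, 5 and 6. Its CD8+ counts were 2475, 7229, 7449 and 6139 in KO and 6185, 6825, 6583 and 6158 in WT. KO DP libraries reached 3063, 8095, 5742 and 6061. Groups overlapped in both subsets, with animals 2 and 3 above and animals 1 and 4 below WT in CD8+ cells. Cdc20, the activator of the APC/C, was at 3247, 6137, 4476 and 3538 in KO CD4+ cells of animals 1 to 4, against 3974, 4575, 4331 and 3318 in WT CD4+ cells of animals 2, 3, 5 and 6. CD8+ cells held Cdc20 counts of 3321, 7349.7, 6483 and 6869 in KO and 5405, 6216, 5704 and 5634 in WT. Cdc20 counts in KO DP cells were 3969, 7833, 6990.5 and 7140.1. For Cdc20 only KO animal 1 lay below the WT range, in both subsets, and KO animals 2, 3 and 4 lay above it in CD8+ cells.

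At the kinetochore, the motor Cenpe, which carries chromosomes to the spindle equator, was at 1784, 5723, 3298 and 2524 in KO CD4+ cells of animals 1 to 4, against 4018, 4671, 4268 and 3699 in WT CD4+ cells of animals 2, 3, 5 and 6. Cenpe counts in CD8+ cells were 2294, 6258, 5271 and 5145 in KO and 6284, 7383, 6278 and 6592 in WT. For DP cells they were 2432, 5906, 2099 and 4902. KO CD8+ libraries all lay below WT CD8+ libraries, and the lowest DP library was that of animal 3, not of animal 1. Among the spindle genes, Kif11, the motor that pushes the poles apart, had counts of 2194, 7704, 6292 and 3651 in KO CD4+ cells of animals 1 to 4, against 6516, 7998, 7292 and 6245 in WT CD4+ cells of animals 2, 3, 5 and 6. In CD8+ cells, Kif11 was at 2156, 9399, 9305 and 6128 in KO and 8970.3, 10045, 9243 and 8801 in WT. Kif11 counts in KO DP cells were 2346, 9387, 6685 and 6390.3. KO animals 1 and 4 lay below and animals 2 and 3 within the WT range in both subsets. Tpx2, the spindle activator of Aurka, was counted at 3432, 8261, 5771 and 4269.7 in KO CD4+ cells of animals 1 to 4, against 5272, 6096, 6042 and 4619.6 in WT CD4+ cells of animals 2, 3, 5 and 6. Tpx2 in CD8+ cells was at 3684, 9512, 8639.6 and 7456 in KO and 7660.1, 8416, 7879 and 8172 in WT. KO DP cells had Tpx2 counts of 3923, 10465, 7401 and 7613. Here animals 1 and 4 lay below WT in both subsets, animal 2 lay above WT in both, and animal 3 lay above it in CD8+ cells only.

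At the midzone, Prc1, which bundles the microtubules between the separating chromosomes, was at 1411, 4479, 3298 and 2085 in KO CD4+ cells of animals 1 to 4, against 4014, 4608, 4664 and 3986 in WT CD4+ cells of animals 2, 3, 5 and 6. In CD8+ cells, Prc1 was at 1201, 5259, 4932 and 3452 in KO and 6049, 6281, 6184 and 5949.9 in WT. Its KO DP counts were 1528, 5572, 3976 and 3731. All 4 KO CD8+ libraries lay below the WT CD8+ libraries, and in CD4+ cells only animal 2 reached the WT range. Among chromosome-bound products, Mki67 had counts of 19132, 49689, 28859 and 20280.1 in KO CD4+ cells of animals 1 to 4, against 29912, 33862, 30260.4 and 29635 in WT CD4+ cells of animals 2, 3, 5 and 6. Mki67 in CD8+ cells stood at 20095, 52393, 46375 and 42031 in KO and 40650.4, 53272, 39952 and 44198 in WT. Its KO DP counts came to 23295, 44092, 18429 and 37561. In CD4+ cells animal 2 lay above and the other KO libraries below the WT range, while animal 1 was the only KO CD8+ library outside the WT range for Mki67, and the lowest DP library was that of animal 3. Top2a, which untangles replicated DNA, was at 7378, 26059.7, 21401 and 12679.6 in KO CD4+ cells of animals 1 to 4, against 22944, 26086, 25373 and 21150.0 in WT CD4+ cells of animals 2, 3, 5 and 6. The Top2a values in CD8+ cells were 6476, 29024, 30802 and 21696 in KO and 31076, 32927, 32122 and 30353 in WT. In KO DP cells Top2a came to 7943, 29476, 20577 and 20828. In CD4+ cells animals 2 and 3 lay within the WT range, and in CD8+ cells only animal 3 did, with the others below it.

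Whether loss of Dnmt3a went with other mitotic transcript levels was addressed by comparing KO with WT cells of the same subset. In CD4+ cells none of the 38 genes passed the test (limma, Benjamini-Hochberg adjusted p under 0.05), in a comparison in which 18.4% of 12391 genes passed. The median log2 fold change of the members was -0.35 (all genes -0.048), and 31 of 38 values were negative. The 7 positive values belonged to Ccnb2, Nek2, Cdc20, Cenpa, Ckap2, Kif20a and Cdca3. The most negative values were those of Pbk, a mitotic kinase (-0.99, 95% interval -1.89 to -0.094, limma adjusted p = 0.107), and Cdk1 (-0.81, -1.70 to 0.072). The most positive were Ccnb2 (0.34, -0.13 to 0.80) and Cdca3, a protein associated with mitotic entry (0.30, -0.18 to 0.77). By role the medians were -0.31 for entry, -0.12 for the passenger complex, -0.21 for the checkpoint and APC/C, -0.40 for the kinetochore, -0.38 for the spindle, -0.46 for the midzone and -0.18 for chromosome-bound products.

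The 95% intervals of the members had half-widths from 0.377 to 0.899 on the log2 scale. At an unadjusted p under 0.05, limma marked 2 members (Pbk and Prc1) and edgeR and DESeq2, run on the recovered reads, marked 0, with 0 passing after adjustment in either tool. Only Pbk had KO CD4+ libraries entirely below the WT libraries, beside 13.3% of all genes. Leaving out KO CD4+ animal 2, the highest library, brought 13 members past the threshold, all lower in KO (Bub1, Cdk1, Cenpe, Cenpf, Kif11, Kif15, Kif20b, Kif23, Mki67, Ndc80, Pbk, Prc1 and Top2a), beside 11.4% of all genes, and moved the median to -0.56. Leaving out animal 1, the lowest, moved the median to -0.083, with 0 past the threshold.

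In CD8+ cells again none of the 38 members passed (limma adjusted p), where 25.2% of 12383 genes did. The median was -0.34 (all genes -0.042) and 35 values were negative, with Ccnb2, Cdc20 and Cdca3 as the exceptions. Pbk (-1.20, 95% interval -2.32 to -0.073, limma adjusted p = 0.107) and Cdk1 (-0.94, -1.91 to 0.033) were again the most negative, and Ccnb2 (0.25, -0.18 to 0.67) and Cdca3 (0.10, -0.42 to 0.63) the most positive. Role medians were -0.25 for entry, -0.22 for the passenger complex, -0.39 for the checkpoint and APC/C, -0.38 for the kinetochore, -0.60 for the spindle, -0.48 for the midzone and -0.22 for chromosome-bound products. Unadjusted p-values under 0.05 were given to 3 members by limma (Kif20b, Pbk and Prc1), 1 by edgeR and 1 by DESeq2, and 0 passed after adjustment in those tools. In 8 members (Cdk1, Pbk, Aurkb, Bub1, Cenpe, Hmmr, Kif20b and Prc1) all KO libraries lay below all WT libraries, a share of 8 in 38 beside 15.5% of all genes.

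The CD8+ values also moved when single KO libraries were left out, with members called less often than all genes in each case. Without KO CD8+ animal 1, 6 members passed (beside 27.4% of all genes): Ccnb2 (0.46) and Cdc20 (0.27) were higher in KO, and Bub1 (-0.30), Cdk1 (-0.41), Kif20b (-0.25) and Prc1 (-0.45) lower, while the median moved to -0.058. Without animal 3, Pbk (-1.55) alone passed, beside 33% of all genes. Without animal 2, 0 passed and the median was -0.51.

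**Figure D3:**
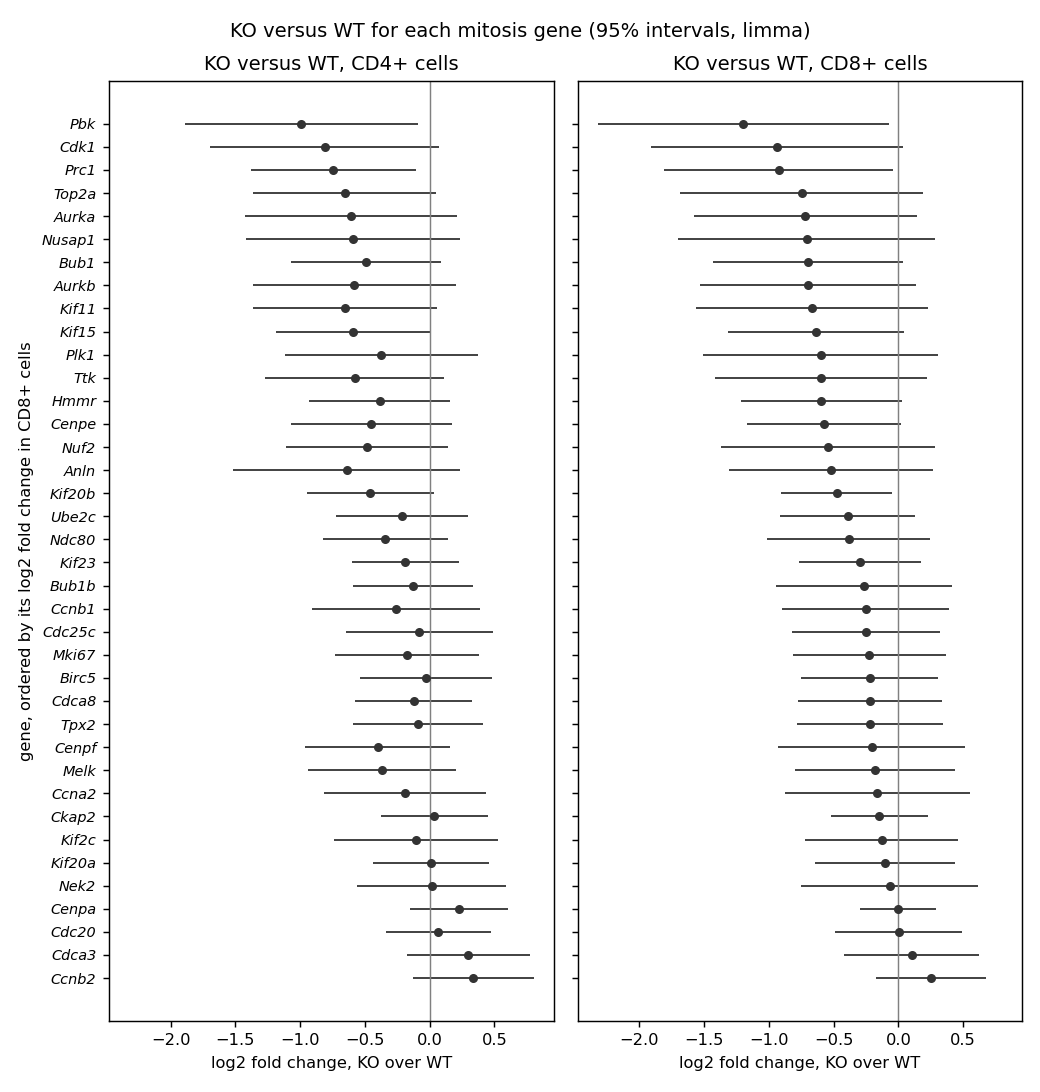
Log2 fold change of KO over WT with its 95% interval (limma) for each of the 38 genes in CD4+ and CD8+ cells. Each subset had 4 KO and 4 WT libraries, and genes are ordered by their log2 fold change in CD8+ cells. Most points lie left of 0 and none passed the adjusted threshold. Pbk and Cdk1 have the most negative and Ccnb2 the most positive values in both subsets.

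The KO minus WT difference itself was compared between the subsets with an interaction term. Without an animal term, none of the 38 members and 0.0161% of 12446 genes passed. An unadjusted p under 0.05 was given to 0 members by limma, edgeR or DESeq2. With the animal as a replicate block, 0 members passed and 0 had an unadjusted limma p under 0.05, beside 1.39% of all genes passing. The values ran from -0.23 for Plk1 and -0.23 for Cenpa to 0.19 for the kinase Melk and 0.20 for Cenpf (CD8+ difference minus CD4+ difference, log2), with a median of -0.11. Without the animal term the 95% interval was -0.76 to 1.15 for Cenpf and -1.47 to 1.01 for Plk1. Leaving out single libraries moved the median between -0.33 and 0.27, with 0 members past the threshold each time.

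The KO libraries spread more widely than the WT libraries in all 38 genes of both subsets. The SD of the log2 level was larger in KO for 38 of 38 members in CD4+ and 38 of 38 in CD8+ cells, as it was for 80.8% and 88.9% of 12411 genes. The median SD over members in CD4+ cells was 0.624 for KO and 0.177 for WT, beside 0.701 and 0.0720 in CD8+ cells and 0.673 in KO DP cells. From the lowest to the highest library the median member differed 2.74-fold in KO CD4+, 3.01-fold in KO CD8+ and 2.87-fold in KO DP cells, against 1.31-fold and 1.11-fold in WT CD4+ and CD8+ cells. Cdk1 had the widest range in KO CD4+ cells (5.25-fold), and Pbk in KO CD8+ (6.79-fold) and KO DP cells (7.88-fold). Cenpa had the smallest in KO CD4+ (1.75-fold) and KO CD8+ cells (1.64-fold).

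At its ends this spread went with the library number. Deviating together was also the reason for calling same-numbered libraries 1 animal, so this is no separate evidence for the pairing. KO animal 1 was the lowest of the 4 KO libraries in all 3 subsets for 35 of 38 members, beside 10% of 12183 genes, and KO animal 2 was the highest in all 3 for 29 of 38, beside 6.94%. Set against the 4 WT libraries of the same subset, KO CD4+ animal 1 lay below the WT range in 36 of 38 members (41.9% of all genes), and animal 2 lay above it in 29 (33.6%). KO CD4+ animal 3 was within the range in 26 members, below it in 11 (32.2%) and above it in 1 (30.5%), and animal 4 was below it in 30 (37.7%). In CD8+ cells animal 1 was below the WT range in all 38 (42.5%). Animal 2 was above it in 22 (37.6%) and below it in 9 (41.6%), animal 3 below in 17 (35.4%) and above in 11 (36.2%), and animal 4 below in 25 (40.7%) and above in 6 (37.3%). In both subsets KO animal 1 thus lay mostly below and KO animal 2 mostly above WT. Counts near or under the share of all genes are not read as a result about the members.

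The mean of 29 DNA replication genes, whose products copy the genome before mitosis, ordered the KO libraries in the same way at the ends. On the log2 scale it was 11.04, 12.18, 11.88 and 11.37 in KO CD4+ cells of animals 1 to 4. For KO CD8+ cells it was 11.21, 12.54, 12.43 and 11.98. In WT CD4+ cells it was 11.97, 12.09, 11.99 and 11.77. Among WT CD8+ libraries it was highest in animal 5 (12.43), while the mitosis mean was highest in animal 3 (12.16). As for the mitosis genes, animal 1 was lowest and animal 2 highest in both KO subsets.

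To set aside the overall level of mitotic transcripts in a library, each member was also expressed relative to the mean of the 38 members in the same library (log2). On this scale 10 members were higher in every KO than in every WT CD4+ library (Ccna2, Kif2c, Tpx2, Kif20a, Nek2, Ckap2, Cdc20, Cenpa, Cdca3 and Ccnb2, beside 3.25% of all genes taken relative to the same mean), and 8 were lower (Pbk, Cdk1, Prc1, Top2a, Kif11, Kif15, Aurkb and Bub1, beside 2.8%). In CD8+ cells 11 were higher (Ccnb1, Tpx2, Melk, Ccna2, Kif2c, Kif20a, Nek2, Cdc20, Cenpa, Cdca3 and Ccnb2, beside 14.9%) and 8 lower (Cdk1, Prc1, Nusap1, Aurkb, Bub1, Kif15, Ttk and Cenpe, beside 2.28%). A member can only be high on this scale while others are low, so the 2 directions are not independent, and no test was made. Subtracting the member mean also adds its spread to genes that do not move with the members. That mean had an SD of 0.646 in KO CD4+ and 0.729 in KO CD8+ libraries. The shares of all genes are therefore not a like background for these counts.

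The cyclin Ccnb2 relative to the member mean was 1.82, 1.29, 1.07 and 1.32 in KO CD8+ cells of animals 1 to 4 and 0.72, 0.70, 0.73 and 0.75 in WT CD8+ cells. Its mean difference, KO minus WT, was 0.65 in CD4+ and 0.65 in CD8+ cells. Cdca3 differed by 0.61 and 0.51, Cenpa by 0.54 and 0.40 and Cdc20 by 0.38 and 0.40. In the other direction, Cdk1 was -1.26, -0.56, -0.46 and -0.60 in KO and -0.22, -0.24, -0.14 and -0.12 in WT CD8+ cells, a mean difference of -0.54 (-0.50 in CD4+ cells), and Prc1 differed by -0.44 in CD4+ and -0.52 in CD8+ cells. On this scale Ccnb2 was thus higher and Cdk1 lower in KO libraries. The other B-type cyclin on the list, Ccnb1, differed by 0.051 in CD4+ cells, with overlap, and by 0.15 in CD8+ cells. Whether the promoter letters shown above go with these relative levels was not tested. Exon length moved with these values in part: across the 38 members the Spearman rho between exon length and the KO minus WT log2 fold change was -0.36 in CD4+ and -0.24 in CD8+ cells, beside -0.14 and -0.024 over all genes with a length, and its part in the relative levels was not tested.

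**Figure D4:**
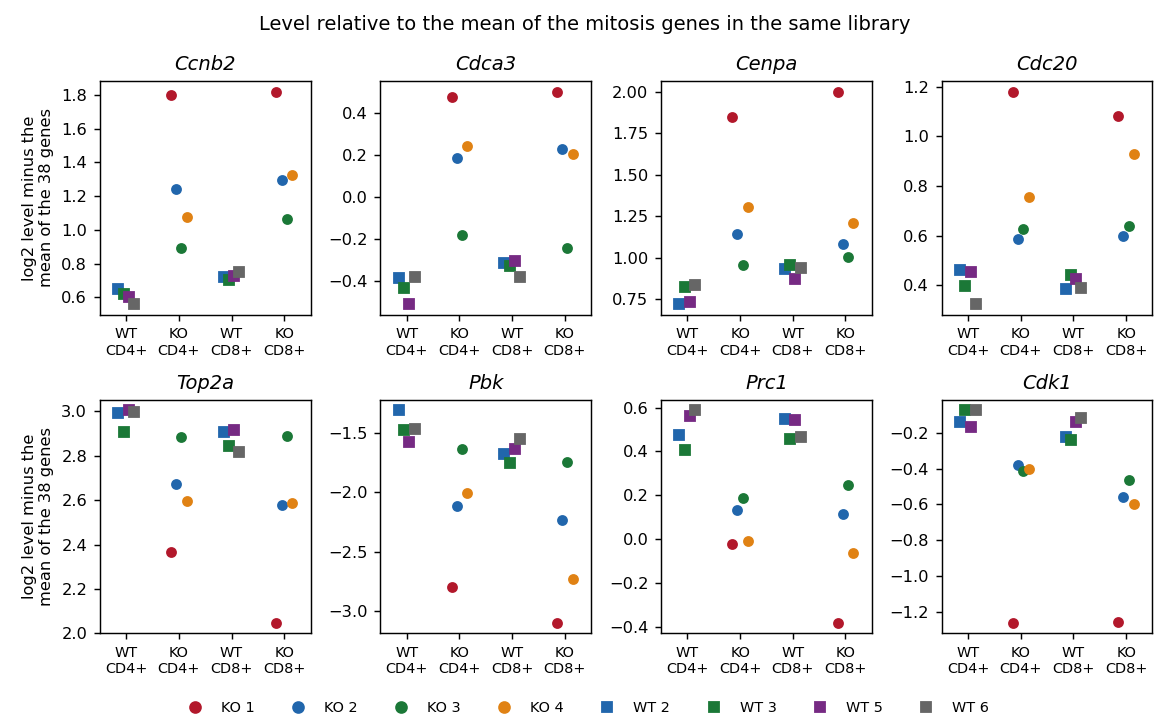
Level of selected members relative to the mean of the 38 members in the same library (log2), in CD4+ and CD8+ cells; each point is 1 library, circles are KO and squares WT. The genes drawn were chosen after their values were seen. KO points of Ccnb2, Cdca3, Cenpa and Cdc20 lie above the WT points and KO points of Cdk1 and Prc1 below them in both subsets.

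Which subset held more mitotic mRNA in WT cells was asked next. Mitosis genes were lower in WT CD4+ than in WT CD8+ cells in 37 of 38 members (limma adjusted p), beside 22.2% of 12559 genes called lower, with a median log2 fold change of -0.55 (all genes -0.0057). The largest differences were those of Birc5, also known as survivin and part of the passenger complex (-0.70, SE 0.0922, limma adjusted p = 3.77e-05), and of the checkpoint kinase Bub1 (-0.69, SE 0.0896, limma adjusted p = 3.60e-05). The smallest among the called genes were Ccnb1 (-0.30) and Cenpf (-0.30). Melk was not called (0.072, 95% interval -0.11 to 0.26, limma adjusted p = 0.533). For 35 members all WT CD4+ libraries lay below all WT CD8+ libraries, beside 20.8% of all genes, with Ccnb1, Melk and Cenpf as the exceptions. Role medians were -0.45 for entry, -0.64 for the passenger complex, -0.57 for the checkpoint and APC/C, -0.42 for the kinetochore, -0.56 for the spindle, -0.53 for the midzone and -0.52 for chromosome-bound products.

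Within WT animals 2, 3, 5 and 6 the median member was higher in CD8+ cells by 0.54, 0.44, 0.43 and 0.68 (log2). In 37 members CD8+ exceeded CD4+ in all 4 WT animals, beside 29.2% of all genes, with Melk as the exception. For members whose WT libraries did not overlap between the subsets, this follows from that separation and is no further evidence. In a joint fit of all 20 libraries, which gives WT and KO libraries 1 shared spread, 1 member (Cenpa) passed, beside 12.8% of all genes called in either direction.

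The same subset comparison in KO cells gave 0 of 38 members past the threshold without an animal term, where 4.22% of 12189 genes passed, and 0 had an unadjusted p under 0.05 by limma, edgeR or DESeq2. All 38 values were negative, from Anln (-0.75, 95% interval -1.93 to 0.43) and Nek2, a centrosome kinase (-0.60, -1.46 to 0.27), to Melk (-0.11) and Pbk (-0.11), with a median of -0.42. With the animal as a replicate block, 27 members were lower in KO CD4+ than in KO CD8+ cells, beside 8.68% of all genes. Anln (-0.75, limma adjusted p = 0.00129) and Kif2c, a microtubule-depolymerizing kinesin (-0.53, limma adjusted p = 0.00259), were among them. The 11 that did not pass were Bub1b, Mki67, Cdk1, Ccnb1, Nuf2, Plk1, Top2a, Prc1, Aurka, Melk and Pbk. WT and KO comparisons use different libraries, and the difference between them is the interaction given above.

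Within KO animals 1 to 4 the median member was higher in CD8+ than in CD4+ cells by 0.13, 0.27, 0.53 and 0.78. In 28 members this held in all 4 animals, beside 18.9% of all genes. The gap was smallest in animal 1, where 9 members were higher in CD4+ cells and where Cd8a reads were also highest among the CD4+ libraries; the part of CD8+ cells in that library was not tested.

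DP cells were compared with each single-positive subset of the same KO donors, so both comparisons share the 4 DP libraries. Against KO CD8+ cells and without an animal term, 0 of 38 members and 0.00823% of 12153 genes passed. An unadjusted p under 0.05 was given to 0 members by limma, edgeR or DESeq2. With the animal as a replicate block 0 members passed, beside 0.00823% of all genes, and 4 had an unadjusted limma p under 0.05. The median was 0.036 (log2), from Anln (-0.48, 95% interval -1.65 to 0.68) and Cenpf (-0.41, -1.39 to 0.56) to Aurka (0.29, -0.96 to 1.53) and Cdca3 (0.31, -0.39 to 1.01). Within animals, 10 members were higher in DP than in CD8+ cells of all 4 animals (Cdk1, Ccnb2, Aurka, Pbk, Birc5, Cdc20, Ube2c, Cenpa, Ndc80 and Cdca3), beside 16.2% of all genes, and 2 were lower (Cenpf and Anln), beside 15.1%.

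The DP library of animal 3 stood apart among these differences. Relative to CD8+ cells of the same animal, Mki67 was at -1.33 and Cenpe at -1.33 in this library, while Cdk1 was at 0.62 and Cdca3 at 0.72. This library also had the fewest genes with reads (11783). Between it and the mean of the other DP libraries, the Spearman rho of the log2 difference with exon length was -0.39 over 38 members and -0.44 over 11552 genes. The part of exon length in these differences was not tested.

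Against KO CD4+ cells, all 38 values were positive in DP cells, with a median of 0.48 and 0 members past the threshold, where 1.95% of 12175 genes passed. Unadjusted p-values under 0.05 were given to 4 members by limma, 5 by edgeR and 5 by DESeq2, and 0 passed after adjustment in those tools. Birc5 (0.75, 95% interval from just under 0 to 1.51) and Cdca3 (0.73, 0.061 to 1.39) had the largest values and Cenpf (0.081) and Mki67 (0.088) the smallest. With the animal as a replicate block, 6 members were higher in DP cells, beside 2.65% of all genes: Birc5 (limma adjusted p = 0.0239), its complex partner Cdca8 (0.54, limma adjusted p = 0.0267), Cdca3 (limma adjusted p = 0.0320), the cyclins Ccnb2 (0.67, limma adjusted p = 0.0376) and Ccna2 (0.51, limma adjusted p = 0.0407), and Nek2 (0.56, limma adjusted p = 0.0464). In 29 members DP exceeded CD4+ in all 4 animals, beside 18.9% of all genes, with animal medians of 0.29, 0.34, 0.38 and 0.82.

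**Figure D5:**
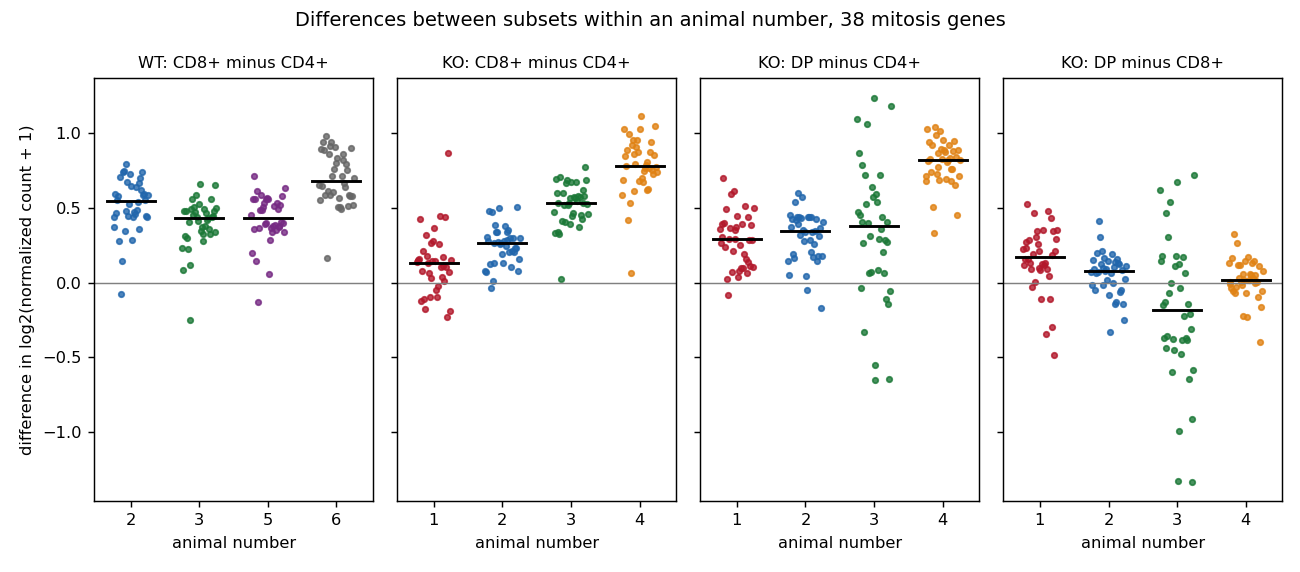
Differences in the log2(normalized count + 1) level between subsets of the same animal; each point is 1 of the 38 genes in 1 animal, grouped by difference and animal, with the median marked. For most genes CD8+ lies above CD4+ in WT and in KO animals and DP lies above CD4+, and DP minus CD8+ scatters around 0, with the widest scatter in animal 3.

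The other genes of mitosis (condensins, cohesins, further kinetochore, checkpoint, APC/C and spindle genes, 104 tested) were read beside the members, with their share of calls against the 18.4% and 25.2% of all genes given above. In KO versus WT CD4+ cells 4 were called higher and 3 lower by limma, with a median of -0.25: Pkmyt1, an inhibitory kinase of Cdk1, fell by 0.73 on the log2 scale, the kinetochore protein Zw10 by 0.43 and the cohesin factor Pds5a by 0.30, while the phosphatase Cdkn3 (0.74) and the APC/C subunits Anapc16 (0.67) and Anapc5 (0.45) rose most. None of the 18 regulators of mitotic transcription passed (median -0.19). Of 26 cell cycle control genes, the quiescence factor Klf2 (0.90) and the inhibitor Cdkn2d (0.51) were higher and the cyclin Ccnd1 (-0.95) lower. Of 29 replication genes only the polymerase subunit Pold1 passed (-0.50), with a median of -0.34.

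In KO versus WT CD8+ cells 4 of the other mitotic genes were called higher and 10 lower (median -0.36). Pkmyt1 (-1.30), the kinetochore gene Zwilch (-0.98) and Ska2 (-0.82), which stabilizes kinetochore attachment, fell most, and Anapc16 (0.61), the centralspindlin subunit Racgap1 (0.47) and Anapc7 (0.40) rose most. The transcription factor E2f5 (-0.99) was the only regulator of mitotic transcription called. Among cell cycle control genes 6 were higher, with Cdkn2d (0.60), the quiescence factor Foxo3 (0.53) and Cdk6 (0.51) leading, and Cdk2 (-0.70) was lower. The replication genes Prim1 (-0.74) and Gins3 (-0.69) were lower, and the median of that list was -0.38.

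Between WT subsets the other mitotic genes went with the members: 84 of 104 were lower in CD4+ cells and 2 higher (median -0.45), beside 22.2% of all genes called lower. Pkmyt1 (-0.98), Troap (-0.92) and the securin gene Pttg1 (-0.92) had the largest differences, and Zwint (0.26) and Wapal (0.22) were the exceptions. Of the mitotic transcription regulators 11 of 18 were lower, led by the activators Foxm1 (-0.81) and Mybl2 (-0.76) and the repressor E2f7 (-0.67). Replication genes were lower in 28 of 29, led by Tk1 (-0.75), Prim1 (-0.70) and Cdc45 (-0.69). Cell cycle control genes went both ways, 12 higher and 4 lower: Ccnd2 (1.52), Cdkn2b (1.24) and Slfn2 (1.07) were higher in CD4+ cells, and Ccne1 (-0.73), Cdk2 (-0.51) and Ccne2 (-0.45) lower.

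Between KO subsets, without the animal term, the only genes of these lists that passed were Ccnd2 (1.09) and Slfn2 (0.86), higher in CD4+ than in CD8+ cells, and Ccnd2 (-1.38), lower in DP than in CD4+ cells. With the animal as a replicate block, 45 other mitotic genes, 7 regulators of mitotic transcription and 24 replication genes were lower in KO CD4+ than in KO CD8+ cells, and 12 other mitotic, 1 regulatory and 17 replication genes were higher in DP than in CD4+ cells, beside the shares of all genes given for the block.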

How the data were processed

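Normalized counts of 17101 genes in 20 RNA-Seq libraries were used. The authors prepared stranded poly(A) libraries, aligned read pairs to mm10 with STAR (version 2.7.2b per the submitters' processing notes), counted them on UCSC mm10 gene exons with summarizeOverlaps, using strand, and divided them by a DESeq2 size factor per library, and the deposited signal is this normalized count. Every deposited value was a whole multiple of 1 step per library (100% of values, relative tolerance 1e-06), and whole reads were recovered from these steps. Between 37547651 and 46966318 reads per library were recovered. No other columns were present.

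Genes with a mean of at least 10 over the libraries compared were tested as log2(normalized count + 1) with limma 3.58.1 (R 4.3.3, lmFit and eBayes with trend, 2-sided, only the groups compared, no block), with Benjamini-Hochberg adjustment over all genes and a threshold of 0.05. Fold changes are on this scale, which understates changes of low genes. The fits were tested on simulated data for KO versus WT CD4+ cells with 200 changed genes, whose median log2 change in the limma fit was 0.968 in size. There limma recovered 66% of them with 4.35% false calls, edgeR 64.5% with 4.44% and DESeq2 69% with 13.8%. The simulation gave KO and WT libraries the same dispersions, whereas KO libraries spread more widely here. Changes as small as the median KO versus WT change of the members were not simulated. Alternatives were a pseudocount of 10, no filter, a minimum mean of 50, quantile and 75th percentile scaling, edgeR 4.0.16 and DESeq2 1.42.0 on whole reads, a joint fit of 20 libraries, a replicate block and leaving out single libraries. No 2 libraries of the same group agreed within sampling noise, and libraries of different groups were not compared in this way. The labels do not say what the numbers in sample titles share. Deviations from group means correlated between same-numbered libraries (r 0.412 to 0.498 for KO CD4+ and CD8+, 0.271 to 0.457 for KO CD4+ and DP, 0.338 to 0.538 for KO CD8+ and DP, 0.120 to 0.196 for WT CD4+ and CD8+). Between differently numbered libraries r was -0.341 to 0.116, -0.307 to 0.0554, -0.395 to 0.0697 and -0.138 to 0.0111 in the same order. Within a genotype, same-numbered libraries were therefore treated as paired. Nothing in the labels says more about the origin of the replicates, and p-values measure the spread between these libraries.

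Members and lists were chosen with earlier results of these data known. Values by library were given for 12 members set by role. Fold changes were named for the 2 largest and 2 smallest per comparison, for members called where 5 or fewer passed and for those called against the majority, and other genes were named by call and size. Other-cell marker lists (T cell, neutrophil, erythroid, B cell and macrophage) were summed per library. Promoter sequences came from RefSeq (GRCm38.p6).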

Additional observations from a re-analysis of the deposited data

Results flagged for a closer look

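Dixon's test on the 4 libraries of each group marked 3 of 195 series of values (1.54%), where chance marks about 1 in 20. Cenpa, the centromeric histone, had a normalized count of 9031 in KO CD4+ cells of animal 2, beside 5165 to 5638 in the other KO CD4+ libraries. Kif23, a centralspindlin motor of the midzone, was at 3971 in WT CD8+ cells of animal 2, beside 4294 to 4305 in the others. Mki67 was at 33862 in WT CD4+ cells of animal 3, beside 29635 to 30260.4 in the others.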

How the results depend on the processing

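The 0 of 38 calls in KO versus WT cells held under each alternative that kept all libraries, but not when single libraries were left out (0 to 13 members in CD4+ and 0 to 6 in CD8+ cells). With a replicate block on the numbers that KO and WT share, which leaves animals 2 and 3 of each, the medians turned to 0.073 in CD4+ and 0.054 in CD8+ cells with 0 members called. Same-numbered KO and WT libraries had r of 0.0696 to 0.0846 in CD4+ and -0.0024 to 0.0990 in CD8+ cells. Differently numbered ones had r of -0.116 to 0.0873 and -0.119 to 0.129, ranges that hold the same-number values. KO and WT numbers were therefore not treated as pairs. Between subsets of 1 genotype the replicate block called 27 members in KO CD4+ versus CD8+ cells and 6 in KO DP versus CD4+ cells, and the block changed no other count of members called. The joint fit of 20 libraries called 1 member in WT CD4+ versus CD8+ and 1 (Cenpa) in KO DP versus KO CD4+ cells, and the cause was not tested. Leaving out single libraries gave 35 to 37 members in the WT comparison: Cenpf was lost without WT CD4+ animal 2 or 6 or WT CD8+ animal 3 or 6, and Ccnb1 without WT CD4+ animal 2. The interaction median ranged from -0.33 to 0.27 without single libraries. For KO DP versus CD8+ cells the median was -0.0041 with edgeR and ranged from -0.33 to 0.34 without single libraries, so its sign is not determined. Without single libraries the medians also ranged from -0.77 to -0.23 for KO CD4+ versus CD8+ and from 0.18 to 0.76 for KO DP versus CD4+ cells, with 0 members called. In alternatives chosen after seeing the data, leaving out KO animal 1 altogether gave medians of 0.0047 for the interaction and -0.025 for DP versus CD8+ cells, and leaving out KO animal 3 reversed neither. For single genes, 4661 results kept direction and side of the threshold, 54 newly passed and 41 no longer passed. The 374 others moved by more than the replicate spread, and the cause was not tested. How far depth limits these results was not tested.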
